A study of Arabidopsis thaliana with 27 samples.

Results

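A set of 151 Arabidopsis genes gave more signal in seedlings grown on NaCl, and less in seedlings grown on sorbitol, than in seedlings on plain ATS media. They were chosen from 21509 genes by 2 averages. Each gene was read from its brightest probe by the mean over the 27 arrays, provided that some medium had all 3 of its arrays flagged well above background. Its log2 difference from the ATS media mean, averaged over the 4 doses, had to be at least 0.4 on NaCl and at most -0.4 on sorbitol. These averages chose the genes and are therefore given as description, without a test. Tests were made on differences between doses of the same agent, which the averages do not fix, by limma across all 21509 genes with Benjamini-Hochberg adjustment and a threshold of 0.01. A gene that moved strongly at 1 dose could qualify through that dose. Counts of members are therefore given beside the share of all genes that passed the same test, where that share was recorded.

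Col-0 seeds were germinated and the seedlings grown for 2 weeks on 9 media, and total RNA of whole seedlings, shoots and roots together, was labelled with Cy3 and hybridised to 1-colour Agilent arrays, 3 per medium. The media were ATS with NaCl at 50, 75, 100 or 125 mM, ATS with sorbitol at 100, 150, 200 or 250 mM, and unsupplemented ATS media as the control. The design sets ionic against osmotic stress, with each sorbitol dose intended to match the osmotic strength of 1 NaCl dose (50 with 100 mM, 75 with 150 mM, 100 with 200 mM and 125 with 250 mM). In whole seedlings, fewer cells of a type and less RNA per cell cannot be told apart. The study calls its replicates biological repeats, and the labels do not say whether they came from separate cultures, so p-values measure the spread between these samples. NaCl and sorbitol differences from ATS media share the same 3 control arrays.

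The best-known biology among the members is that of iron. Plants short of iron switch on a small set of transcription factors of the bHLH subgroup Ib, among them bHLH100 and bHLH101, together with the E3 ligase BRUTUS, nicotianamine synthases that make an iron chelator, and the phloem transporter OPT3, whereas ferritins, which store iron, follow the opposite course. A further group belongs to the SAUR family, small auxin-induced proteins of which several promote cell expansion. Other members serve vesicle traffic, lipid synthesis, protein import or kinase signalling.

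Arrays were brightest at NaCl 50 mM, where the 75th percentile of the signal before quantile normalisation lay between 5362 and 6002, and dimmest in ATS media, between 3070 and 3303. The arrays lay on 7 slides, and replicates 2 and 3 of every medium shared a slide. The main fit has no term for slide and counts these arrays as independent. The control shared slides with NaCl 50, 75 and 100 mM, and no slide with NaCl 125 mM or with any sorbitol dose, so for those groups slide and treatment cannot be told apart in the difference from ATS media. Replicates were close, with a median SD over genes between 0.03 and 0.08 log2 units by group. The 18 shoot genes used as tissue markers had a median difference from ATS media between -0.09 and 0.00 in all 8 treatments. The 12 root genes were lower on NaCl by a median of -0.29 at 50 mM, -0.67 at 75 mM, -0.78 at 100 mM and -1.25 at 125 mM, and stood at -0.35, 0.05, -0.57 and -0.38 over the rising sorbitol doses. All 30 marker genes were well above background in every group. The root list holds RSL4, a gene that the study places on its salt-specific list. Less root tissue and regulation of these genes cannot be told apart, and the part of this change in the values below was not tested.

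Over the rising NaCl doses the members climbed. Their median difference from ATS media was -0.31 at 50 mM, 0.29 at 75 mM, 0.82 at 100 mM and 1.57 at 125 mM, while the median of all genes stayed between -0.03 and 0.04. At 50 mM NaCl 96 of the 151 members lay below the ATS media mean, at 125 mM 3 did. On sorbitol the course was not a steady fall. The median was -0.19 at 100 mM, -0.84 at 150 mM, -0.13 at 200 mM and -1.34 at 250 mM, and at 200 mM 64 members lay above the ATS media mean. All 12 NaCl arrays lay above the 3 ATS media arrays in 32 members (17.9% of all genes), all 12 sorbitol arrays lay below them in 31 (13.7%), and all 12 NaCl arrays lay above all 12 sorbitol arrays in 36 (3.17%). In 14 members all 12 NaCl arrays lay above and all 12 sorbitol arrays below the 3 ATS media arrays, a pattern found in 0.288% of all genes. The rule asks for these directions, so nothing is read from these counts. Among the 14 were PGL5, GolS3, EXPA17, SAUR9, CDF1, TIM17-1 and NIP7;1.

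**Figure D1:**
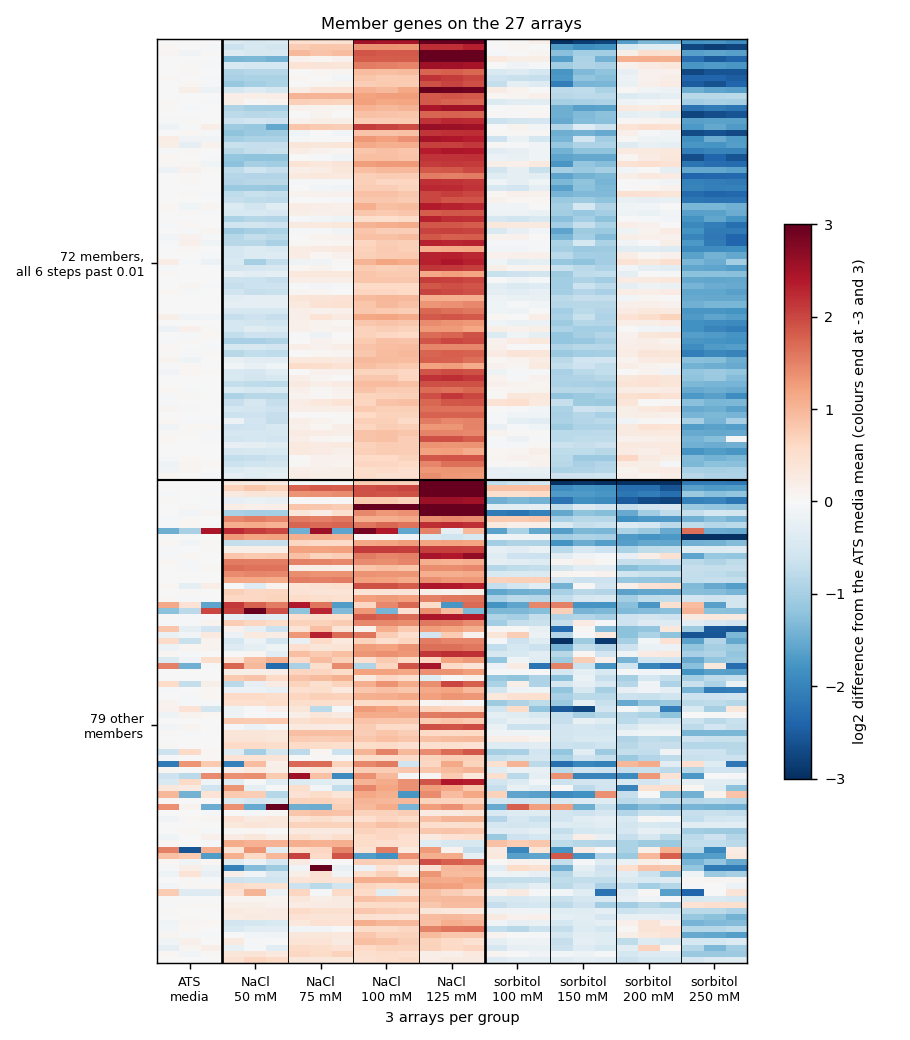
Each row is 1 of the 151 members and each column 1 of the 27 arrays, ATS media at the left, then NaCl 50 to 125 mM, then sorbitol 100 to 250 mM; colour is the log2 difference from the ATS media mean, red above and blue below, ending at -3 and 3. The upper 72 rows run blue to red over NaCl and alternate over sorbitol, and some of the lower 79 rows are speckled where replicates disagree.

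The slopes over dose were tested next. A gene that qualified through the highest dose tends to have a slope of the same sign, so these tests are no check of the rule. A positive slope over the 4 NaCl doses passed the threshold in 120 members, against 28.1% of all genes, and a negative slope in 10, against 41.2% of all genes; the median member gained 0.65 log2 units per 25 mM. A negative slope over the sorbitol doses passed in 109 members, against 26.5% of all genes, and a positive slope in 7, against 30.3%, with a median of -0.29 per 50 mM. The slope over NaCl exceeded that over sorbitol in 128 members (25.2% of all genes) and fell short of it in 2, AT4G15670 and AT4G36590 (40.3% of all genes). AT4G36590 was dim, on no array well above background at sorbitol 100 and 250 mM, so its sorbitol slope is uncertain. Among the 117 members well above background in all 9 groups, 104 had a positive NaCl slope and 99 a negative sorbitol slope. The share among all genes measured this well was not recorded. A further fit had slide as a block and left out the 250 mM arrays, which fill a slide of their own. In it 36 members had a negative and 30 a positive sorbitol slope. The parts of slide and of the missing dose in this move cannot be told apart. The share of all genes that passed in this fit was not recorded, so these counts have no background beside them. The choice of members depends on the background correction, since 52 genes met the rule after normexp correction, 51 of them among the 151.

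**Figure D2:**
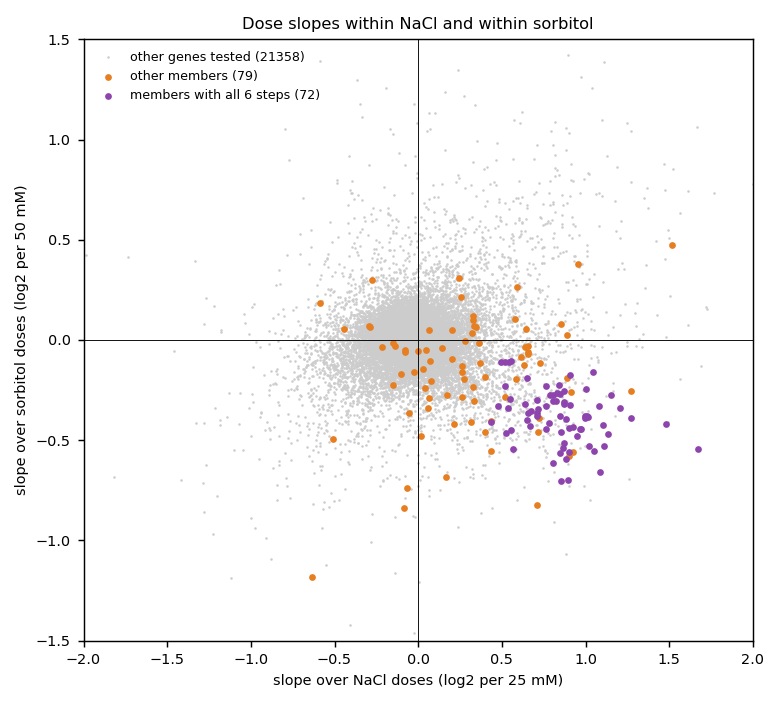
Each point is a gene, placed by its fitted slope over NaCl doses (log2 per 25 mM, horizontal) and over sorbitol doses (log2 per 50 mM, vertical); purple points are the 72 members that pass every neighbouring-dose step, orange points the other 79 members, grey points the remaining genes, and 19 genes fall outside the axes. The purple points lie at the lower right, with NaCl slopes above 0 and sorbitol slopes below 0.

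Steps between neighbouring doses showed where the movement lay. On NaCl, 103 members were higher at 75 than at 50 mM (12.8% of all genes), 109 higher at 100 than at 75 mM (17.3%) and 95 higher at 125 than at 100 mM (18.9%), while 6, 6 and 14 members were lower at these steps (15.1%, 21.9% and 28.4% of all genes). On sorbitol, 100 members were lower at 150 than at 100 mM (18.5%), 89 were higher at 200 than at 150 mM (17.2%) and 99 were lower at 250 than at 200 mM (20.9%). The opposite direction passed in 10, 21 and 22 members (25.4%, 19.4% and 27.0% of all genes). The curvature over the sorbitol doses was negative in 91 members and positive in 23 (24.0% and 19.0% of all genes), and over the NaCl doses it was positive in 44 and negative in 31 (13.3% and 18.0%). The 3 NaCl steps all passed upward in 78 members (3.77% of all genes), and the sorbitol steps passed downward, upward and downward in 77 (6.3%). All 6 of these steps passed in 72 members, or 47.7% of them, against 2.23% of all genes. This set was formed after its values were seen and is described without a further test.

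BHLH100, a bHLH subgroup Ib factor of the iron deficiency response, had the widest gap between NaCl and sorbitol of all members. Its log2 signal was 8.33, 8.31 and 8.29 on ATS media, then 8.57, 8.55 and 8.58 at NaCl 50 mM, 8.28, 8.27 and 8.31 at 75 mM, 9.06, 9.04 and 9.02 at 100 mM, and 11.29, 11.37 and 11.29 at 125 mM. On sorbitol it was 7.56, 7.66 and 7.78 at 100 mM, 4.78, 5.39 and 5.09 at 150 mM, 3.41, 3.87 and 3.81 at 200 mM, and 6.21, 6.22 and 6.16 at 250 mM. The NaCl arrays at 50, 100 and 125 mM lay above the control arrays, by far the most at 125 mM, and those at 75 mM overlapped them. Every sorbitol array lay below every control array; at 200 mM sorbitol only 1 of the 3 arrays was well above background. The slope was 0.90 ± 0.03 per 25 mM NaCl (SE, adjusted p = 1.7e-15) and -0.58 ± 0.03 per 50 mM sorbitol (adjusted p = 6.56e-12).

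BHLH101, its close relative, behaved differently on NaCl. It stood at 9.78, 9.85 and 9.79 on ATS media and was already at 11.27, 11.34 and 11.27 at NaCl 50 mM, with means of 11.36 at 75 mM, 10.90 at 100 mM and 11.22 at 125 mM. Over sorbitol the means were 10.60 at 100 mM, 8.92 at 150 mM, 8.06 at 200 mM and 8.43 at 250 mM. All NaCl arrays exceeded the control with little dependence on dose (slope -0.07, adjusted p = 9.55e-05), and the lowest sorbitol dose lay above the control while the other 3 lay below it.

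BTS encodes BRUTUS, an E3 ligase that restrains the iron deficiency response. Its log2 signal was 10.41, 10.38 and 10.35 on ATS media, 9.73, 9.90 and 9.82 at NaCl 50 mM, 11.15, 11.20 and 11.20 at 75 mM, 11.74, 11.73 and 11.70 at 100 mM, and 12.60, 12.57 and 12.72 at 125 mM. On sorbitol the arrays gave 10.38, 10.45 and 10.37 at 100 mM, 8.71, 8.54 and 8.58 at 150 mM, 9.91, 10.02 and 10.06 at 200 mM, and 7.66, 7.56 and 7.61 at 250 mM. BTS was 1 of the 72 genes with all 6 steps. Its arrays lay below the control at the lowest NaCl dose and overlapped it at the lowest sorbitol dose. NAS4, a nicotianamine synthase, followed the same steps at smaller size: its difference from ATS media was 0.20, 1.02, 1.24 and 1.86 over the NaCl doses and 0.10, -0.81, -0.34 and -0.82 over the sorbitol doses.

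OPT3, which loads iron into the phloem, stood at a log2 signal of 13.79 ± 0.01 on ATS media (SD, n = 3). It rose over the NaCl doses, with differences from ATS media of 0.38, 0.76, 0.85 and 0.93 and a slope of 0.17 per 25 mM (adjusted p = 3.07e-11). On sorbitol the differences were 0.16, -0.49, -0.83 and -0.65, with a slope of -0.28 per 50 mM (adjusted p = 3.2e-14). AT1G47395 and AT1G47400, adjacent loci without a name in the files or in RefSeq, ranked among the 4 members with the largest gap. AT1G47400 had means of 9.05, 10.12, 10.29 and 11.36 over the NaCl doses and 9.21, 6.50, 5.95 and 6.64 over the sorbitol doses, against 8.31 on ATS media. AT1G47395 had means of 10.36, 11.40, 11.92 and 13.28 over NaCl and 10.55, 8.30, 7.86 and 8.84 over sorbitol, against 10.02 on ATS media. Both loci, like BHLH101 and OPT3, were above the control at 100 mM sorbitol and below it from 150 mM on.

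**Figure D3:**
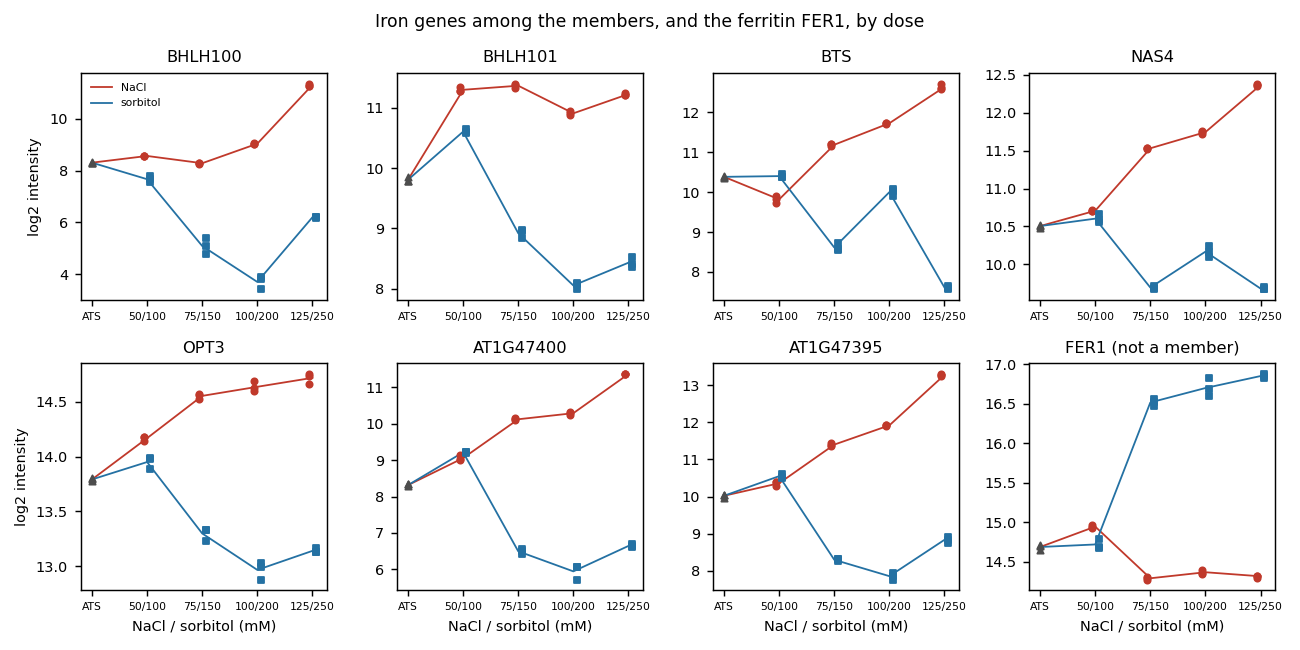
Log2 intensity of 7 members (iron genes and the adjacent loci AT1G47400 and AT1G47395) and of the ferritin FER1, which is not a member; each point is an array, lines join group means, NaCl red circles, sorbitol blue squares, ATS media grey triangles. Over the sorbitol doses FER1 runs the other way, between 16.47 and 16.88 at sorbitol 150 to 250 mM, against 14.64 to 14.71 on ATS media.

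Of 22 tested genes on a list of the iron deficiency response, 5 were members. Counting these 5, whose direction the rule fixed, 15 of the 22 were higher on NaCl than on ATS media over the 4 doses and 5 lower (30.4% and 29.6% of all genes), and 7 were higher and 12 lower on sorbitol (32.7% and 29.1% of all genes). Over NaCl doses 16 of the 22, members included, had a positive slope and 3 a negative one (28.1% and 41.2% of all genes). Over sorbitol doses 5 had a positive and 14 a negative slope (30.3% and 26.5% of all genes). The list's median difference was 0.23, 0.49, 0.63 and 0.88 over the NaCl doses and 0.26, -0.26, -0.40 and -0.52 over the sorbitol doses. bHLH38 and bHLH39, the other subgroup Ib factors, were not members, since they lay below ATS media at low NaCl: bHLH38 differed by -1.28, -1.16, -0.30 and 1.38 over NaCl and by 0.12, -2.83, -3.95 and -3.07 over sorbitol. IRT1, the root iron importer, was not a member either and differed by 1.32, 0.99, 2.53 and 3.34 over NaCl and by 3.02, 0.83, -0.41 and 1.59 over sorbitol.

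The 4 ferritin genes had dose slopes of the opposite sign to most members, and none was a member. All 4 had a negative slope over NaCl doses and a positive slope over sorbitol doses past the threshold (41.2% and 30.3% of all genes). Averaged over the doses, 3 of the 4 were lower on NaCl and 3 higher on sorbitol (29.6% and 32.7% of all genes). At the lowest doses their median difference from ATS media was 0.22 at NaCl 50 mM and -0.14 at sorbitol 100 mM. FER1 read 16.47, 16.52 and 16.56 at sorbitol 150 mM, against 14.64, 14.70 and 14.71 on ATS media. Its slope was 0.66 per 50 mM sorbitol (adjusted p = 9.33e-20) and -0.18 per 25 mM NaCl (adjusted p = 6.25e-11).

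SAUR genes formed the largest family among the members, with 7: SAUR8 (AT2G16580), SAUR9, SAUR12 (AT2G21220), SAUR16 (AT4G38860), SAUR19, SAUR23 and SAUR72 (AT3G12830). SAUR16 read 6.70, 6.79 and 6.74 on ATS media, 7.58, 7.54 and 7.55 at NaCl 50 mM, 7.62, 7.41 and 7.48 at 75 mM, 8.30, 8.21 and 8.26 at 100 mM, and 9.22, 9.15 and 9.40 at 125 mM. The sorbitol arrays of SAUR16 gave 6.38, 6.12 and 6.10 at 100 mM, 6.43, 6.65 and 6.68 at 150 mM, 6.49, 6.95 and 7.21 at 200 mM, and 5.16, 5.61 and 5.59 at 250 mM. Every NaCl array of SAUR16 lay above the control arrays. The sorbitol arrays lay below them at 100, 150 and 250 mM and overlapped them at 200 mM.

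SAUR19 and SAUR23, close copies within 1 gene cluster, were highest at the lowest NaCl dose and lower, though still above the control, at 125 mM. SAUR23 read 10.30, 10.33 and 10.31 at NaCl 50 mM and 9.96, 9.96 and 10.01 at 125 mM, against 8.86, 8.87 and 8.89 on ATS media. Its mean on sorbitol was 8.43 at 100 mM, 8.97 at 150 mM, 8.22 at 200 mM and 8.11 at 250 mM, so that 1 of the 4 sorbitol doses was above the control. SAUR19 gave differences of 1.54, 1.48, 1.42 and 1.07 over NaCl and -0.32, 0.10, -0.67 and -0.81 over sorbitol. Their sequences are so alike that the probes may share targets, and the 2 genes are not independent evidence.

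SAUR8, SAUR9, SAUR12 and SAUR72 climbed with the NaCl dose. The NaCl slope was 0.85 for SAUR8, 0.40 for SAUR9, 0.89 for SAUR12 and 0.31 for SAUR72 per 25 mM, with adjusted p of 3.44e-17, 1.34e-15, 4.49e-10 and 5.87e-12. At sorbitol 250 mM SAUR8, SAUR9 and SAUR72 lay -1.65, -1.69 and -1.57 from ATS media. SAUR12 was dim, well above background on 1 of the 3 ATS media arrays and on none at sorbitol 250 mM, so no difference is given for it there. Of the 65 genes that RefSeq names as SAUR and that were tested, 37 were higher and 15 lower on NaCl (30.4% and 29.6% of all genes), and 18 were higher and 33 lower on sorbitol (32.7% and 29.1%), the 7 members included. Over sorbitol doses 41 of the 65 had a negative and 9 a positive slope (26.5% and 30.3% of all genes). Over NaCl doses 26 had a positive and 21 a negative slope (28.1% and 41.2% of all genes). The median NaCl slope of the 65 was 0.01, so the family did not climb as a whole. Of 39 tested genes on an auxin response list 3 were members. On NaCl 16 of the 39 were higher and 14 lower, and on sorbitol 9 were higher and 18 lower (the same shares of all genes as above).

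**Figure D4:**
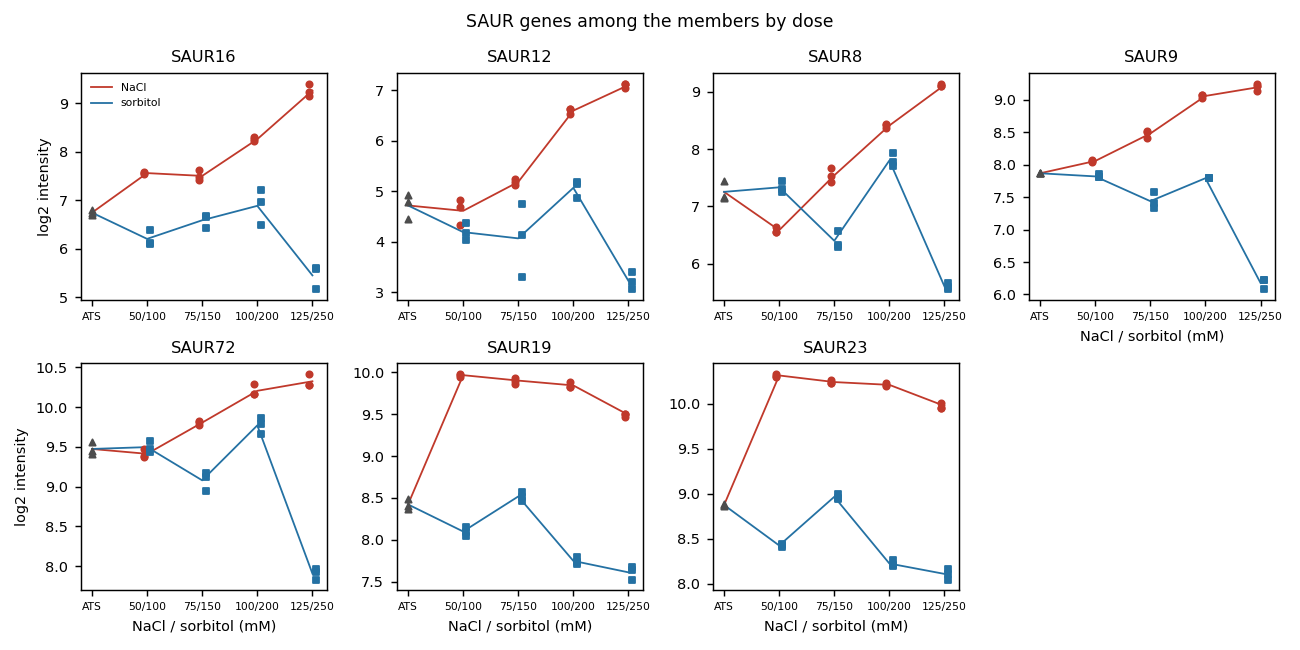
Log2 intensity of the 7 SAUR members; each point is an array, lines join group means, NaCl red circles, sorbitol blue squares, ATS media grey triangles. SAUR19 and SAUR23 are highest at the lowest NaCl dose, and the other 5 at 125 mM; all but the dim SAUR12 have their lowest measured sorbitol mean at 250 mM.

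Other growth genes were few. EXPA5, an expansin that loosens cell walls, differed from ATS media by 0.11, 0.69, 1.19 and 1.78 over NaCl doses and by -0.36, -0.96, -0.09 and -1.01 over sorbitol doses. EXPA17, a second expansin, was level over NaCl, with differences of 0.57, 0.54, 0.55 and 0.47, and declined over sorbitol, with -0.36, -0.63, -0.74 and -0.85 (slope -0.16, adjusted p = 3.35e-11). GA2OX2, which inactivates gibberellins, differed by 0.01, 0.86, 0.70 and 0.29 over NaCl and by -0.41, -0.57, -0.75 and -0.69 over sorbitol. These 2 expansins were the only members among 40 tested cell wall loosening genes.

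The enzymes ChlAKR and PGL5 were among the 12 members with the widest gap between NaCl and sorbitol. ChlAKR, a chloroplast aldo-keto reductase that detoxifies reactive carbonyls, read 13.16, 13.22 and 13.12 at NaCl 125 mM and 7.56, 7.62 and 7.49 at sorbitol 250 mM, against 9.35, 9.36 and 9.37 on ATS media. At NaCl 50 mM it was lower than the control, with 8.92, 8.89 and 8.94, and its slope over NaCl was 1.48 ± 0.02 per 25 mM (SE, adjusted p = 7.41e-23). PGL5, a 6-phosphogluconolactonase of the pentose phosphate pathway, stepped up between 75 and 100 mM NaCl: it read 10.64, 10.61 and 10.58 at 75 mM and 13.67, 13.60 and 13.62 at 100 mM. Its sorbitol differences were -0.31, -0.59, -0.60 and -1.16, all sorbitol arrays lying below the control arrays.

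GGCT2;1 (AT5G26220), a gamma-glutamyl cyclotransferase that degrades glutathione and is a marker of sulfur shortage, differed by 0.64, 0.51, 1.24 and 1.56 over NaCl and by -0.88, -0.56, -0.83 and -0.58 over sorbitol. SHM7, a serine hydroxymethyltransferase on the same sulfur list, differed by -0.08, 0.25, 0.63 and 1.92 over NaCl and by -0.49, -0.56, -0.35 and -0.68 over sorbitol. They were the only members of the 14 genes tested from that list. Counting these 2, 10 of the 14 were higher and 2 lower on NaCl (30.4% and 29.6% of all genes). On sorbitol 4 were higher and 6 lower (32.7% and 29.1% of all genes). NRT1.8, which removes nitrate from the xylem, was the only member among 20 nitrate genes, with a difference of 1.57 at NaCl 125 mM, -0.86 at sorbitol 150 mM and 0.02 at sorbitol 250 mM. GolS3, a galactinol synthase of raffinose synthesis, differed by 1.65, 0.20, 0.85 and 1.42 over NaCl and by -0.78, -0.40, -1.18 and -0.70 over sorbitol, with no slope over NaCl past the threshold (-0.00, adjusted p = 0.825).

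No gene of the abscisic acid and osmotic list (13 tested), the phosphate starvation list (22), the jasmonate list (25), the ethylene list (19), the water channel list (19), the anthocyanin list (11) or the sodium, potassium and chloride transport list (30) was a member. With 151 members among 21509 genes, lists of this size would seldom hold one, so nothing is read from their absence. On the abscisic acid list 11 genes were higher and 1 lower on each agent (30.4% and 29.6% of all genes on NaCl, 32.7% and 29.1% on sorbitol). DIN2, a beta-glucosidase of the low sugar list, and BCB, a copper-binding protein of the senescence list, were the only members from theirs. BCB stood at 15.13 ± 0.04 on ATS media (SD, n = 3) and rose with the dose of both agents, by 0.59 per 25 mM NaCl (adjusted p = 2.06e-23) and by 0.27 per 50 mM sorbitol (adjusted p = 2.65e-17).

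The 72 members with all 6 steps were chosen for the same direction at each step, so their profile is given as description. Their median difference from ATS media was -0.62, 0.14, 0.82 and 1.90 over the NaCl doses and -0.04, -0.98, 0.15 and -1.65 over the sorbitol doses. At NaCl 50 mM 70 of the 72 lay below the ATS media mean, and at sorbitol 200 mM 52 lay above it. For the other 79 members the medians were 0.25, 0.51, 0.80 and 1.07 over NaCl and -0.41, -0.59, -0.63 and -0.81 over sorbitol. These medians do not describe each gene. Of the 79, 48 had a positive and 10 a negative NaCl slope (28.1% and 41.2% of all genes). A negative sorbitol slope passed in 37 and a positive one in 7 (26.5% and 30.3% of all genes). The 72 include KIN10, the catalytic subunit of the energy-sensing kinase SnRK1, and LCB1, a subunit of serine palmitoyltransferase, which starts sphingolipid synthesis. Also among them are VHA-A1, a subunit of a vacuolar-type proton ATPase, MAGO, of the exon junction complex, and Tic20-I, of the chloroplast import channel. SEC8, of the exocyst, GUN4, which stimulates magnesium chelatase, and CYP707A2, an abscisic acid hydroxylase, belong to the 72 as well.

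KIN10 read 10.29, 10.21 and 10.20 on ATS media, 9.07, 9.02 and 9.02 at NaCl 50 mM, 10.24, 10.17 and 10.13 at 75 mM, 11.13, 11.13 and 11.10 at 100 mM, and 12.40, 12.41 and 12.44 at 125 mM. On sorbitol KIN10 read 10.05, 10.02 and 10.10 at 100 mM, 8.65, 8.71 and 8.71 at 150 mM, 10.31, 10.48 and 10.57 at 200 mM, and 7.57, 7.86 and 7.65 at 250 mM. The SD of 3 arrays was at most 0.15, and the smallest step between neighbouring doses of 1 agent was 0.94. LCB1 differed from ATS media by -0.87, 0.05, 0.93 and 1.75 over NaCl and by -0.45, -1.42, 0.01 and -2.64 over sorbitol. VHA-A1 gave -0.84, -0.04, 0.66 and 2.16 over NaCl and -0.18, -1.32, -0.05 and -2.07 over sorbitol. Of the 8 treatments, all 3 genes were highest at NaCl 125 mM and lowest at sorbitol 250 mM. The choice by steps fixed their highest NaCl dose, so nothing is read from this.

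**Figure D5:**
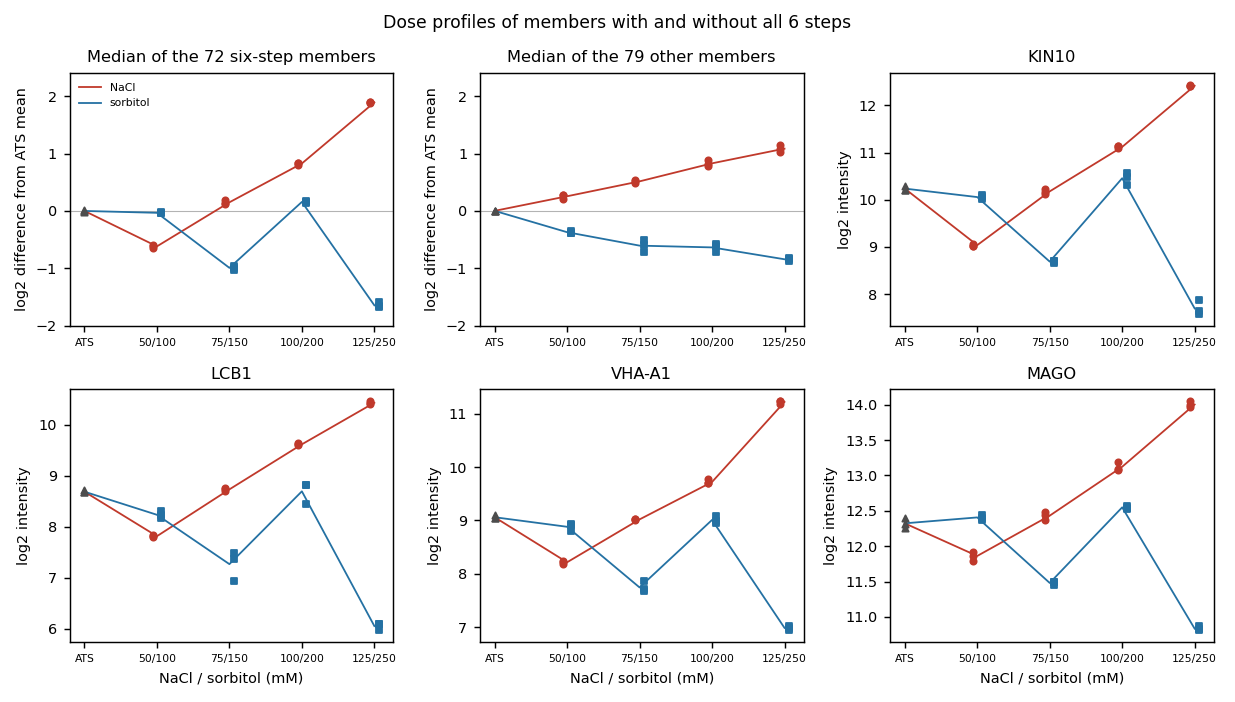
The first 2 panels plot, for each array, the median log2 difference from the ATS media mean over the 72 members with all 6 steps and over the other 79 members; the remaining panels plot log2 intensity of KIN10, LCB1, VHA-A1 and MAGO. NaCl is red circles, sorbitol blue squares, ATS media grey triangles and lines join group means. The 72 members alternate over sorbitol (medians -0.04, -0.98, 0.15 and -1.65) where the other 79 decline.

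CYP707A2 had the steepest NaCl slope of any member, 1.67 ± 0.03 per 25 mM (SE, adjusted p = 2.58e-20), with differences of -1.39, 0.10, 1.81 and 3.61. On sorbitol it differed by 0.22, -1.34 and 1.07 at 100, 150 and 200 mM. At 250 mM it was well above background on none of the 3 arrays and at least 5.07-fold lower than on ATS media. SOS5, a fasciclin-like arabinogalactan protein whose loss makes roots salt-sensitive, differed by -0.97, 0.10, 1.01 and 2.51 over NaCl and by 0.01, -1.56, 0.27 and -2.16 over sorbitol.

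Array brightness differed between the groups. Before normalisation the 75th percentile over the NaCl doses was 5362 to 6002, 4074 to 4490, 4505 to 5306 and 4372 to 4989, and over the sorbitol doses 4521 to 4872, 4480 to 4529, 3683 to 4012 and 3582 to 3816. The 72 genes had their lowest NaCl median at the brightest dose, 50 mM, and their lowest sorbitol median at the dimmest, 250 mM, and the part of brightness in the steps was not tested. The values within slides follow as a description, since these arrays also chose the 72 genes. All 72 were higher at sorbitol 200 than at 150 mM on both slides that held both doses, by a median of 1.22 and 1.1, and all 72 were lower at 150 than at 100 mM on the slide that held both (median -0.95). All 72 were higher at NaCl 100 than at 75 mM on both slides with those doses (medians 0.65 and 0.67). For NaCl 50 mM minus ATS media the medians were -0.62 and -0.61 on the 2 slides, with 70 of 72 below 0 on each. The 250 mM sorbitol arrays filled a slide of their own, and no slide held both NaCl 100 and 125 mM, so the last step of each agent cannot be told apart from slide.

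The rule used the arrays of the next comparison too, so its counts are a description. Across the 151 members, NaCl 125 mM exceeded sorbitol 100 mM by a median of 1.8 on the first slide that held both, in 147 genes (47.2% of all genes), and by 1.73 on the second, in 148 genes (46.9% of all genes). NaCl 125 mM exceeded sorbitol 150 mM and 200 mM by medians of 2.58 and 1.82 on the 1 slide with these arrays.

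Further probes existed for 38 members. Of the 49 such probes, 44 were well above background in at least 1 group, and 41 of these had a mean above 0 on NaCl and below 0 on sorbitol; 26 also passed both thresholds of 0.4. KIN10 had a second, dimmer probe with means of 0.70 on NaCl and -0.68 on sorbitol. For LCB1 the other two probes gave 0.71 and 0.47 on NaCl and -0.20 and -1.01 on sorbitol. The 4 further BCB probes lay between 0.45 and 0.52 on NaCl and between -0.66 and -0.39 on sorbitol. The 3 exceptions were probes of AT2G44120, AT4G05070 and AT4G14370.

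Some members fell over the NaCl doses while staying above ATS media on average. AT2G43890, with no name in the files, differed by 1.23, 1.06, -0.04 and -0.52 over NaCl (slope -0.63, adjusted p = 7.72e-20) and by -0.10, -0.98, -1.73 and -3.79 over sorbitol (slope -1.18, adjusted p = 2.73e-23). It had the steepest fall of any member on each agent. DIN2 fell likewise on both, with differences of 1.07, 1.06, 0.52 and -0.44 over NaCl and 0.82, -0.84, -1.05 and -0.76 over sorbitol. SAUR19, AT4G36590 and AT4G15670 had smaller falling NaCl slopes of -0.15, -0.29 and -0.15. CDF1, a cycling DOF factor that represses flowering, differed by 0.56, 0.33, 0.52 and 0.24 over NaCl and by -0.32, -0.32, -0.56 and -0.42 over sorbitol, and its NaCl slope did not pass with slide as a block over 50 to 100 mM (-0.01, adjusted p = 0.704).

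Rising slopes on both agents passed the threshold in a few members. AT1G62420 had the largest sorbitol slope, with 1.52 per 25 mM NaCl (adjusted p = 2.4e-18) and 0.48 per 50 mM sorbitol (adjusted p = 1.37e-09), with differences of -1.01, 0.35, 1.37 and 3.72 over NaCl and -2.11, -1.33, -1.11 and -0.60 over sorbitol. AT1G33030 followed with slopes of 0.95 on NaCl and 0.38 on sorbitol, and AT4G25310 with 0.25 and 0.31. With slide as a block and without 250 mM sorbitol, the sorbitol slope was 0.14 for AT1G33030 (adjusted p = 0.0527) and -0.15 for AT4G25310 (adjusted p = 0.124).

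Among the other members with the widest gaps, AT1G12030 differed by -0.23, 0.02, 0.75 and 2.57 over NaCl and by -1.40, -1.99, -2.65 and -2.06 over sorbitol. AT2G14247 differed by 1.08, 1.73, 1.65 and 2.22 over NaCl and by 0.21, -0.59, -0.57 and -0.81 over sorbitol. AT4G14370 was among the 5 steepest on NaCl, with a slope of 1.27 (adjusted p = 9.32e-18). AT5G61100 had a fitted sorbitol slope past the threshold, but it was well above background on no array at 200 and 250 mM, so its size is not given, and with slide as a block its adjusted p was 0.0366.

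Not every member was well measured. Of the 151, 117 were well above background in all 9 groups and 34 were not, including 29 that were not so on all 3 ATS media arrays. For 17 members the filter was passed through NaCl groups only, and for 11 through a single NaCl group, so that these had to differ in the direction of the rule. A median replicate SD above 0.5 log2 units was found in 14 members, none of them well above background in all 9 groups, and none of the 14 had a NaCl slope past the threshold in either direction. AT3G28790, among the 12 members with the widest gap, was such a gene: its ATS media mean was 3.70 ± 2.13 (SD, n = 3), and it was well above background on all 3 arrays at NaCl 50 mM alone. A further 5 genes met both averages but failed the filter. The averages of the rule kept spots flagged as outliers, and with these left out 150 genes met it. AT3G26350 had a single far value at NaCl 75 mM, where its arrays read 3.85, 12.73 and 3.72, so its NaCl average is not reliable. AT2G07741 and AT2G07678 lie in a stretch of chromosome 2 copied from the mitochondrial genome, and their signal may come from either copy.

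The thresholds cut through a continuous range. Just inside on NaCl were AT4G22960 at 0.40, AT4G15670 at 0.41 and DHDPS2 at 0.41, and just outside were AT3G16510, AT1G27250 and AT4G32640, each at 0.39. On sorbitol AT3G63052 at -0.40, CDF1 at -0.41 and AT5G03120 at -0.41 were just inside, and GTR2 at -0.40, ICME-LIKE2 at -0.40 and ENODL4 at -0.39 just outside. The members were spread over the 5 chromosomes with 40, 25, 21, 32 and 33 genes on chromosomes 1 to 5, and 3 pairs lay within 10 genes of each other: AT1G47395 with AT1G47400, ADNT1 with PIPK10, and SAUR19 with SAUR23.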

How the data were processed

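Each array was scanned and read by Agilent Feature Extraction (version 10.7, per the submitters' processing notes). The deposited intensity values of the series table are the processed signals after quantile normalisation by the authors, and recomputing that step from the deposited scanner intensity gave the same values. The deposited flags, other values without a unit (0 or 1), mark spots above background, saturated or as outliers. Control spots were left out. Of 43803 remaining spots, 34369 matched 1 gene through RefSeq transcript accessions (assembly TAIR10.1), giving 25383 genes. Log2 values were fitted with limma 3.58.1 in R 4.3.3, with 9 group means over 27 arrays, outlier spots (530 values) left out, and contrasts for the slope over doses (per 25 mM NaCl or 50 mM sorbitol), their difference and each step between neighbouring doses. No spot was saturated. The rule and the printed differences from ATS media used the series table with outlier spots kept. The number of arrays limits the precision.

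Named are the 12 members with the largest gap between NaCl and sorbitol averages, those with the steepest slopes, those nearest the thresholds, members on the gene lists or in families of at least 3, and members of known role; the 72-gene set, the within-family counts and the choice of examples came after values were seen. The members, lists and tests were chosen with earlier results of these data known. Alternatives were other scalings, background correction by normexp (offset 50), filters, probe averaging, each array left out, and blocks for replicate number or slide. Replicate numbers did not pair the samples. Simulated data with known slopes were used to test the fitting script.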

Additional observations from a re-analysis of the deposited data

Results flagged for a closer look

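In a limma test, the slope per 25 mM NaCl was above that per 50 mM sorbitol in 128 members (25.2% of all genes). It was below in 2, AT4G15670 and AT4G36590 (40.3% of all genes). AT4G36590 was on no array well above background at sorbitol 100 and 250 mM. The rule favours the first direction, so these counts are no check of it. With slide as a random block, 119 members had the larger NaCl slope, and the share of all genes was not recorded for that fit. No slide held all doses of both agents, and a fixed slide block was not run for this difference.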

How the results depend on the processing

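The counts of members at each dose step and the count of members with a larger NaCl slope stayed within 1.5 times of the values reported under each scaling, filter, background correction, probe average, replicate block and random slide block tried; the random slide block gave 119 members with the larger NaCl slope, and a fixed slide block was not run for these counts. The fit with slide as a fixed block can use only sorbitol 100 to 200 mM, and leaves out the 250 mM arrays, which fill a slide of their own. It gave 30 members with a positive and 36 with a negative sorbitol slope, and a median slope of 0.0076. The share of all genes was not recorded for it. In that fit 15 named sorbitol slopes changed sign: SAUR8 (AT2G16580) at 0.19, SAUR72 (AT3G12830) at 0.0341, SAUR16 (AT4G38860) at 0.17, CYP707A2 at 0.31, AT4G14370 at 0.15, AT4G25310 at -0.15, NRT1.8 at -0.25, EXPA5 at 0.11, KIN10 at 0.16, LCB1 at 0.0898, VHA-A1 at 0.0564, MAGO at 0.0836, GUN4 at 0.19, Tic20-I at 0.26 and SOS5 at 0.18. The median NaCl slope was 0.70 with 75th percentile scaling and 0.48 with normexp, and the median sorbitol slope was -0.12 with normexp and -0.31 among genes well above background on all arrays; the cause was not tested. The choice of members itself depended on background correction: 52 genes met the rule after normexp, 278 with thresholds of 0.3 and 61 with 0.5. Without 1 array, between 135 and 156 genes met it, fewest without ATS media replicate 1. These were not always the same genes. Of the 151 members, 117 still met it without ATS media replicate 1, 132 without replicate 2 and 128 without replicate 3. With 75th percentile scaling 159 genes met it, 134 of them members. The replicate number as a block gave 120 members with a positive NaCl slope and 110 with a negative sorbitol slope. Pairs of arrays with the same number had a median correlation of 0.03. With slide as a random block, the estimated correlation between arrays of the same slide was 0.52. Adjusted p-values of the main fit leave this correlation out and may be too small. Leaving out 1 array at a time gave 119 to 121 and 8 to 11 members with a positive and negative NaCl slope, 6 to 10 and 105 to 113 with a positive and negative sorbitol slope, 127 to 130 with the larger NaCl slope and medians of 0.63 to 0.65 on NaCl and -0.30 to -0.28 on sorbitol. Of 535 values of these counts and medians under other settings, 525 kept their direction and stayed within 1.5 times (counts) or 1 replicate SD (medians), and of 1044 for the 81 named slopes 1010 kept their direction and side of the threshold, 19 missed the threshold and 15 changed sign. Dim probes limit precision: 34 members were not well above background in all 9 groups. The fit without both first replicates of sorbitol 150 and 200 mM, added after the data were seen, gave 113 members with a negative sorbitol slope.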
